A study of Mus musculus with 12 samples.

Results

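The genes *Rab6b*, *Rbm44*, *Slco4a1*, *Cobl*, *Gm49980* and *Znf41-ps*, were followed in brain endothelial cells (BECs) of mice with and without cortistatin. The 6 genes were chosen by their own readout, as genes placed away from *Cort* that differed the same way between the genotypes in both environments, out of 27321 genes found in both deposited tables. Their differences between genotypes are therefore given as a description, without a test. In these data the placing did not hold for 1 of them, since *Znf41-ps* lay on the chromosome of *Cort*, and for *Gm49980* no position was found.

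BECs were primary cultures from Cort+/+ mice or from Cort-/- mice lacking the cortistatin gene, in a C57BL/6J background by the methods and C57BL/6 by the labels, maintained as hemizygotes, and each replicate was a pool from 3 mice. The age is given by the study only for Cort+/+ BECs, as 8 weeks, and the cells were enriched with puromycin. The cells were kept under normoxia and normoglycaemia (NX/NG, 21% O2 with 5.5 mM glucose, 24 h) or were held for 4 h at 1% O2 without glucose and serum and then reoxygenated for 20 h (OGD-R), which mimics ischaemia in culture, although the labels also name a mouse stroke model. Of 12 samples listed, 10 were analysed. Each environment had 3 libraries of Cort+/+ and 2 of Cort-/- BECs, the third Cort-/- sample (NX/NG replicate 3, OGD-R replicate 2) being not used here. The gene deletion is the only difference between the genotypes that the labels name, and whether Cort+/+ and Cort-/- mice were littermates is not given in the sources used here.

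The genes do different work. Rab6b is the brain-enriched paralogue of Rab6a, a small GTPase that steers vesicles between the Golgi, the endoplasmic reticulum and the cell surface. Rbm44 is an RNA-binding protein known from the bridges that join developing germ cells. Slco4a1 is a membrane transporter of organic anions that can carry thyroid hormone, in the family of transporters through which the brain endothelium takes such anions from the blood. Cobl, or cordon-bleu, starts actin filaments and is known from the microvilli of epithelia and the branching of neurons. *Znf41-ps* is a pseudogene of the zinc finger type, and *Gm49980* is a predicted gene without a named function.

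By the GENCODE vM21 annotation of GRCm38, 4 of the genes were protein-coding and lay on chromosomes other than that of *Cort*, which is at chr4:149125034-149126763. *Rab6b* (ENSMUSG00000032549.7) was at chr9:103111787-103185276, forward strand, with up to 8 exons per transcript, and *Rbm44* (ENSMUSG00000070732.2) at chr1:91145089-91170795, forward strand, with up to 16. *Slco4a1* (ENSMUSG00000038963.15) was at chr2:180456245-180474867, forward strand, with up to 13 exons, and *Cobl* (ENSMUSG00000020173.17) at chr11:12236608-12464960, reverse strand, with up to 15. *Znf41-ps* (ENSMUSG00000084350.1), an unprocessed pseudogene with 3 exons, was at chr4:145825237-145829942, forward strand, 3.3 Mb before *Cort*, with 115 annotated genes between them. The genome build used by the study is not given in the sources used here, so these positions describe the symbols and not the alignments.

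*Znf41-ps* also had a near copy. Of its 2339 distinct 75-base words, 1942 (83.0%) occurred in transcripts of other genes, 1757 of them in *Zfp991*, a zinc finger gene 1.99 Mb from *Cort*. At 40 bases, the read length named in the labels, 91.6% of its words were shared. Along the 1559 bases where the last exon of *Znf41-ps* lies beside coding sequence of the last exon of *Zfp991*, 1553 bases were identical (99.6%). The 120 bases with the most differences, shown because they carry what could tell reads of the 2 genes apart, are given 5′ to 3′ from the GENCODE transcripts, in lower case with the differing bases in capitals. *Znf41-ps* exon 3 is from chr4:145828756-145828875, forward strand, and *Zfp991* exon 7 from chr4:147179394-147179513, forward strand, both on GRCm38.
Znf41-ps: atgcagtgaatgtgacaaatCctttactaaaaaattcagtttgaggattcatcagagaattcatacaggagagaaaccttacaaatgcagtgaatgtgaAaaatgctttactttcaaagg
Zfp991: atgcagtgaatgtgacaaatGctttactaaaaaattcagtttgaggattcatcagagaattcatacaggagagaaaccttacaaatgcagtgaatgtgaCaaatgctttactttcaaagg
Only 2 of these 120 bases differed, and other windows of that length had none. Reads assigned to *Znf41-ps* and to *Zfp991* are uncertain for this reason, and how the authors placed reads with several matches is not given in the sources used here. Transcripts of *Rab6b*, *Rbm44*, *Slco4a1* and *Cobl* shared 0 words of 40 or of 75 bases with any other gene. Within their spans the annotation also places *Gm37166* on the strand of *Rab6b*, with 0 to 5 reads in a library, and the antisense *Gm12002* in *Cobl*, with 0 to 2 reads.

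The libraries were of nearly equal depth, with 12386048 to 12390428 reads on genes. Endothelial markers were high in every library, *Cdh5* at 443 to 740 and *Cldn5* at 105 to 136 RPKM (reads for each kilobase of a gene, relative to library size). *Cort* had at most 2 reads in a Cort+/+ library and 0 in every Cort-/- library, too few to check the genotype labels. Cort-/- OGD-R replicate 3 and Cort+/+ OGD-R replicate 1 held 0.0951% and 0.0775% of their reads on the ribosomal gene *Rn18s-rs5*, against 7.64 to 15.8% in the other 8 libraries. Over all genes, limma called 0 of 29965 genes (0%) between the genotypes under NX/NG, and 0 of 29775 (0%) after OGD-R, where an FDR of 0.05 or less was required, with 2513 (8.39%) and 1019 (3.42%) at an unadjusted p under 0.05, and limma-voom on the recovered reads called 124 (0.414%) and 5 (0.0168%).

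All 6 genes had groups that did not overlap in either environment, 4 with Cort-/- higher and 2 with Cort-/- lower. This is what the choice of the genes fixes, and nothing is read from it. Over the 27321 genes in both tables, 609 (2.23%) were higher in every Cort-/- library in both environments and 649 (2.38%) were lower in every one.

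*Rab6b* had the greatest difference. Under NX/NG it was at 0.241 and 0.188 RPKM in the Cort-/- libraries and at 3.96, 2.00 and 3.45 RPKM in the Cort+/+ libraries. Under OGD-R it was at 0.322 and 0.277 RPKM in Cort-/- and at 3.11, 3.49 and 5.01 RPKM in Cort+/+. The lowest Cort+/+ library was 8.27 times the highest Cort-/- library under NX/NG and 9.67 times under OGD-R. Means were 0.215 ± 0.038 (SD, n = 2) and 3.13 ± 1.02 (SD, n = 3) RPKM under NX/NG, and 0.299 ± 0.032 and 3.87 ± 1.00 RPKM under OGD-R. On the log2(RPKM + 0.1) scale the Cort-/- minus Cort+/+ difference was -3.31 ± 0.34 (SE) under NX/NG and -3.29 ± 0.27 under OGD-R. Behind these values stood 12 to 19 reads in each Cort-/- library and 132 to 301 reads in each Cort+/+ library, so a low signal remained in Cort-/- BECs. With 1 RPKM added the differences were -1.74 and -1.89. In the order of levels, *Rab6b* went from the 65.1st percentile of all genes above 0 in Cort+/+ BECs under NX/NG to the 30.8th in Cort-/- BECs.

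Its paralogue *Rab6a* was at 31.5 to 40.8 RPKM in all 10 libraries and was the more abundant of the pair throughout. *Rab6a* was at 39.1 ± 2.42 RPKM in Cort-/- and 36.4 ± 2.62 RPKM in Cort+/+ under NX/NG, a log2 difference of 0.10 ± 0.08 (limma FDR 0.729), and the log2 difference under OGD-R was -0.04 ± 0.15 (limma FDR 0.978). *Rab6b* made up 5.5 to 9.98% of the summed RPKM of the pair in Cort+/+ under NX/NG and 8.39 to 11.0% under OGD-R. In Cort-/- its share was 0.458 to 0.641% under NX/NG and 0.785 to 0.871% under OGD-R. The genes that work with Rab6 were measured as a list of 20, *Rab6a* included, with the motor adaptor *Bicd2*, the kinesin *Kif20a* and the exchange factor subunits *Ric1* and *Rgp1*. Limma and limma-voom called 0 of the 20 between genotypes in either environment, and under NX/NG 1 was higher and 1 lower in Cort-/- at an unadjusted p under 0.05 (*Kif20a*, log2 difference 0.13 ± 0.05, and *Gorab*, -0.28 ± 0.07), with 0 under OGD-R. Their median log2 difference was 0.08 under NX/NG and 0.04 under OGD-R, against -0.01 over all genes in both environments.

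*Znf41-ps* was the other gene lower in Cort-/- BECs. It was at 0.0671 and 0.261 RPKM in Cort-/- and at 2.03, 1.17 and 1.47 RPKM in Cort+/+ under NX/NG, and at 0.353 and 0.0911 RPKM and 0.966, 1.60 and 1.87 RPKM under OGD-R. The groups stood apart, but the lower Cort-/- library rested on 2 reads under NX/NG and 3 under OGD-R, the latter being the library low in ribosomal RNA. The log2 difference was -2.72 ± 0.44 under NX/NG and -2.38 ± 0.51 under OGD-R. Without Cort-/- OGD-R replicate 3 it was -1.75 under OGD-R, and without Cort-/- OGD-R replicate 1 it was -3.00, while without Cort+/+ OGD-R replicate 1 it was -2.64. Under NX/NG it was -2.17 without Cort-/- replicate 1 and -3.28 without Cort-/- replicate 2. With 1 RPKM added the differences were -1.13 under NX/NG and -1.01 under OGD-R. *Zfp991*, with which it shares most of its sequence, was at 0.278 to 0.405 RPKM in Cort-/- and 0.713 to 1.37 RPKM in Cort+/+ under NX/NG, and at 0.226 to 0.468 and 0.874 to 1.23 RPKM under OGD-R. Both genes were thus lower in Cort-/- libraries, and reads passing between them were not tested as a source of either value.

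*Slco4a1* was the most abundant of the 6 genes. It was at 9.35 and 8.77 RPKM in Cort-/- and at 5.23, 5.52 and 6.02 RPKM in Cort+/+ under NX/NG. Under OGD-R it was at 6.84 and 6.61 RPKM in Cort-/- and at 4.04, 4.03 and 3.42 RPKM in Cort+/+. Every Cort-/- library was above every Cort+/+ library of its environment, by at least 1.46 times under NX/NG and 1.64 times under OGD-R. The log2 difference was 0.69 ± 0.08 under NX/NG and 0.80 ± 0.12 under OGD-R, on 196 to 554 reads in each library.

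Among 11 *Slco* genes in each table, *Slco4a1* ranked second in all 10 libraries, behind *Slco3a1*. It made up 32.7 to 34.3% of the summed *Slco* RPKM in Cort-/- and 24.1 to 25.8% in Cort+/+ under NX/NG. Under OGD-R its share was 27.6 to 27.8% in Cort-/- and 16.6 to 18.8% in Cort+/+. *Slco3a1* was at 14.3 ± 0.904 RPKM in Cort-/- and 13.1 ± 0.828 RPKM in Cort+/+ under NX/NG, with a log2 difference of 0.13 ± 0.08 (limma FDR 0.681). Of the 10 other transporters of the list tested in each environment, limma called 0 in both. Limma-voom called 1, *Slco2a1*, a prostaglandin transporter, which was at 0.584 ± 0.0285 RPKM in Cort-/- and 1.14 ± 0.0546 RPKM in Cort+/+ under NX/NG (log2 difference -0.86 ± 0.19, limma FDR 0.343, limma-voom FDR 0.0241). Under NX/NG it was also the only one at an unadjusted p under 0.05, with 0 under OGD-R. The shares over all genes were 8.39% and 3.42%, and nothing is read from these small counts. The median log2 difference of the list was 0.00 in both environments. *Slco1c1*, the transporter known for thyroxine at the brain endothelium, was below 0.1 RPKM in mean in every group.

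Genes of thyroid hormone handling were followed beside *Slco4a1*, as transporters, deiodinases, receptors and binding proteins. Of 9 tested under NX/NG and 8 under OGD-R, limma and limma-voom called 0. The receptor gene *Thra* was at 4.54 ± 0.153 RPKM in Cort-/- and 6.17 ± 0.401 RPKM in Cort+/+ under NX/NG, the only one at an unadjusted p under 0.05 (log2 difference -0.43 ± 0.08, limma FDR 0.282). Over all genes 8.39% were at this p under NX/NG, and nothing is read from the small count of the list. The median log2 difference of the list was 0.25 under NX/NG and -0.11 under OGD-R.

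*Cobl* was at 5.43 and 6.18 RPKM in Cort-/- and at 3.18, 3.92 and 4.97 RPKM in Cort+/+ under NX/NG. Under OGD-R it was at 4.71 and 4.79 RPKM in Cort-/- and at 3.00, 2.58 and 2.86 RPKM in Cort+/+. The gap between the groups was the narrowest of the 6 genes under NX/NG, the lower Cort-/- library being 1.09 times the highest Cort+/+ library, and it was 1.57 times under OGD-R. The log2 difference was 0.54 ± 0.20 under NX/NG and 0.74 ± 0.13 under OGD-R, on 233 to 640 reads in each library. *Cobl* made up 46.4 to 53.6% of the summed RPKM of *Cobl* and its paralogue *Cobll1* in Cort-/- under NX/NG and 33.3 to 44.7% in Cort+/+. *Cobll1* itself was at 5.81 ± 0.639 and 6.70 ± 0.768 RPKM, a log2 difference of -0.20 ± 0.13 (limma FDR 0.681), and at 6.31 ± 0.890 and 6.32 ± 0.961 RPKM under OGD-R (limma FDR 0.998).

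The other actin nucleators and the partners of Cobl made a list of 41 genes, with formins, Spire proteins, leiomodins, the Arp2/3 complex and the syndapins. Limma and limma-voom called 0 of 41 in either environment. Under NX/NG, at an unadjusted p under 0.05, the formin *Diaph3* (log2 difference 0.29 ± 0.10) and the syndapin *Pacsin2* (0.20 ± 0.07) were higher in Cort-/-, and *Lmod3*, *Wasf3* and *Arpc5l* were lower, and 0 of 41 were so under OGD-R. The median log2 difference of the list was 0.01 in both environments.

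*Rbm44* was at the lowest level of the 6 genes in Cort+/+ BECs. It was at 0.261 and 0.266 RPKM in Cort-/- and at 0.0501, 0.035 and 0.106 RPKM in Cort+/+ under NX/NG, and at 0.432 and 0.371 RPKM and 0.0782, 0.0829 and 0.167 RPKM under OGD-R. The groups did not overlap, yet the values rest on 21 to 33 reads in each Cort-/- library and 3 to 13 in each Cort+/+ library. The log2 difference was 1.17 ± 0.31 under NX/NG and 1.28 ± 0.37 under OGD-R with 0.1 RPKM added, and it fell to 0.25 and 0.34 with 1 RPKM added, since the level lay far below 1 RPKM. The ratio of the group means in RPKM was 4.12 under NX/NG and 3.67 under OGD-R. Genes of the intercellular bridge and of cytokinesis made a list of 7, of which limma and limma-voom called 0 in either environment. *Cep55* and *Anln* were higher in Cort-/- under NX/NG at an unadjusted p under 0.05 (log2 difference 0.22 ± 0.08 and 0.26 ± 0.09), with 0 of 7 under OGD-R, and the medians were 0.20 and 0.14. *Tex14*, the kinase of the germ cell bridge, was at 0.0318 ± 0.000646 RPKM in Cort-/- and 0.0105 ± 0.00909 RPKM in Cort+/+ under NX/NG. Under OGD-R it was at 0.0340 ± 0.0481 and 0.0351 ± 0.0359 RPKM, and the groups overlapped. These levels lay near the floor and the reads behind them are not given, so no difference is read from them. Of 5 germ cell markers, 4 were in both tables and *Tex101* was in neither table. Their summed level was 0.632 to 1.36 RPKM in all libraries, most of it from *Sycp3*, with 0.896 to 0.941 RPKM in Cort-/- and 0.856 to 1.36 RPKM in Cort+/+ under NX/NG.

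*Gm49980*, 1183 bases long in the tables, was at 3.42 and 3.13 RPKM in Cort-/- and at 0.552, 0.965 and 0.660 RPKM in Cort+/+ under NX/NG. Under OGD-R it was at 3.31 and 3.84 RPKM in Cort-/- and at 0.431, 0.761 and 0.849 RPKM in Cort+/+. The lowest Cort-/- library was 3.24 times the highest Cort+/+ library under NX/NG and 3.91 times under OGD-R. The log2 difference was 2.06 ± 0.25 under NX/NG and 2.28 ± 0.32 under OGD-R, on 46 to 62 reads in each Cort-/- library and 7 to 15 in each Cort+/+ library. With 1 RPKM added the differences were 1.31 and 1.45. The symbol was not found in the annotation or the gene name tables used here, so its distance from *Cort* could not be checked.

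**Figure D1:**
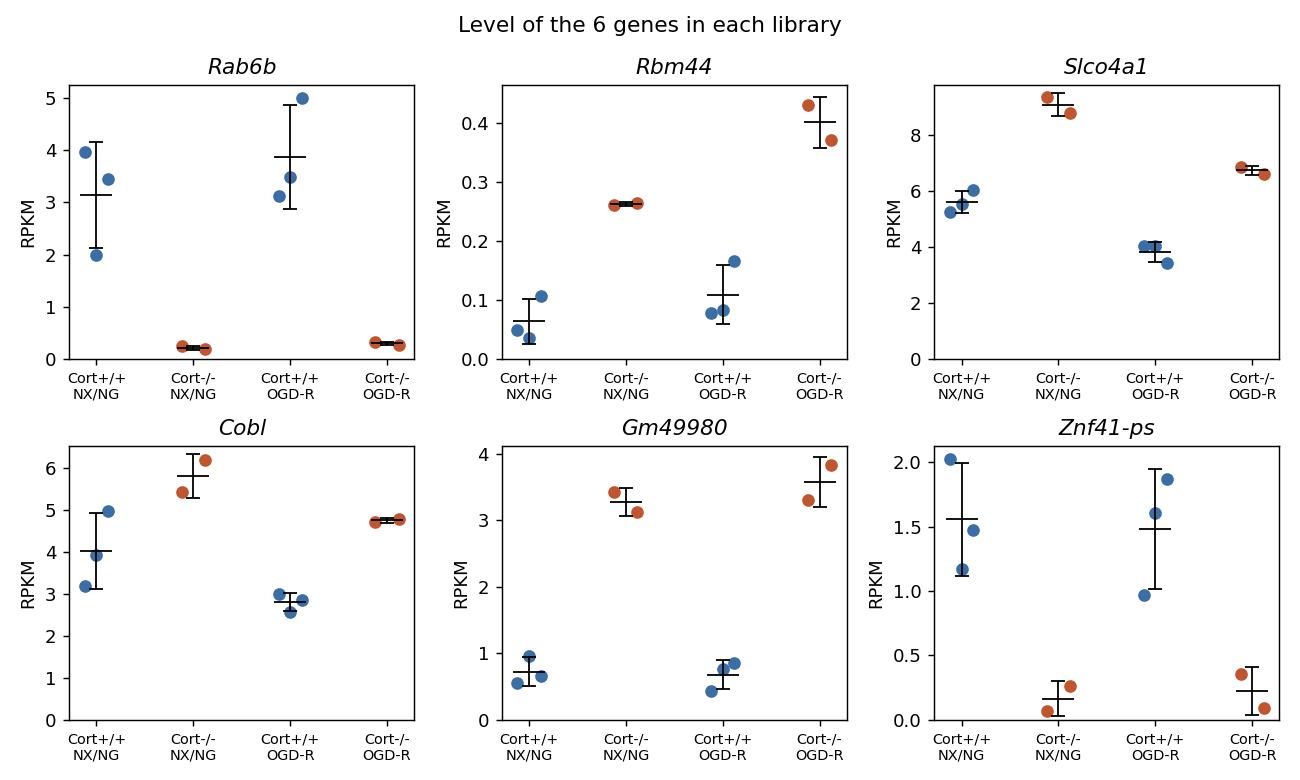
Level of each gene in RPKM (vertical axis, from 0) in every library, by genotype and environment (horizontal axis). Points are libraries, the long bar is the mean and the whiskers are 1 SD (n = 3 for Cort+/+, n = 2 for Cort-/-). Within each environment no Cort-/- point reaches the Cort+/+ range, and the narrowest gap is that of Cobl under NX/NG (1.09 times).

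The order of the 6 genes differed between genotypes, to which their choice by genotype differences leads, and is given as a description. In Cort+/+ BECs under NX/NG it ran from *Slco4a1* (5.59 ± 0.395 RPKM) through *Cobl* (4.02 ± 0.903), *Rab6b* (3.13 ± 1.02), *Znf41-ps* (1.56 ± 0.437) and *Gm49980* (0.725 ± 0.214) to *Rbm44* (0.0638 ± 0.0376). *Cobl* and *Rab6b* overlapped in that order, and so did *Rab6b* at its lowest library and *Znf41-ps* at its highest. In Cort-/- BECs *Slco4a1* (9.06 ± 0.407 RPKM) and *Cobl* (5.81 ± 0.534) were followed by *Gm49980* (3.27 ± 0.210), and *Rbm44* (0.263 ± 0.00332), *Rab6b* (0.215 ± 0.038) and *Znf41-ps* (0.164 ± 0.137) lay together below 0.3 RPKM, the last overlapping with *Rab6b*.

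The comparison of environments was not used to choose the genes and could be tested. It asks whether the genes also move with the ischaemic insult. *Slco4a1* was lower after OGD-R in both genotypes, with values scaled over all 10 libraries of 9.32 ± 0.410 RPKM under NX/NG and 6.55 ± 0.158 RPKM after OGD-R in Cort-/- (n = 2 each), and 5.73 ± 0.412 and 3.73 ± 0.347 RPKM in Cort+/+ (n = 3 each). Within each genotype no OGD-R library reached the NX/NG libraries. The OGD-R minus NX/NG log2 difference averaged over genotypes was -0.55 ± 0.07, with a limma FDR of 0.138 and a limma-voom FDR of 0.027, so that the call depended on the test. Limma called 6 of 27321 genes (0.022%), limma-voom called 20 (0.0732%), and 2006 (7.34%) were at an unadjusted limma p under 0.05, among them *Slco4a1* and *Cobl*.

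*Cobl* was at 5.98 ± 0.555 and 4.63 ± 0.0520 RPKM in Cort-/- under NX/NG and after OGD-R, and at 4.12 ± 0.930 and 2.74 ± 0.208 RPKM in Cort+/+ on the same scale. Its averaged log2 difference was -0.46 ± 0.12 (limma FDR 0.469, limma-voom FDR 0.215), which did not pass either test. The differences by genotype were -0.50 ± 0.11 in Cort-/- and -0.61 ± 0.09 in Cort+/+ for *Slco4a1*, and -0.36 ± 0.19 and -0.55 ± 0.15 for *Cobl*. Both genes thus had their highest level in Cort-/- BECs under NX/NG and their lowest in Cort+/+ BECs after OGD-R.

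The other 4 genes passed neither test between environments. *Rab6b* had an averaged log2 difference of 0.27 ± 0.22 (limma FDR 0.842) and *Rbm44* of 0.36 ± 0.22 (limma FDR 0.753). *Gm49980* differed by -0.06 ± 0.21 (limma FDR 0.983) and *Znf41-ps* by 0.03 ± 0.35 (limma FDR 1.00). The errors of these 4 genes, 0.21 to 0.35, were above that of *Slco4a1* (0.07), which at -0.55 had a limma FDR of 0.138. A difference of that size was therefore not detectable by limma in any of the 4. Of the lists followed above, limma and limma-voom called 0 genes between environments, and 0 of 20 Rab6 genes, 2 of 9 *Slco* genes, 1 of 8 thyroid hormone genes, 0 of 41 actin genes and 1 of 7 bridge genes were at an unadjusted p under 0.05, with list medians from -0.11 to 0.10. Over all genes 7.34% were at this p, and nothing is read from the small counts of the lists.

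**Figure D2:**
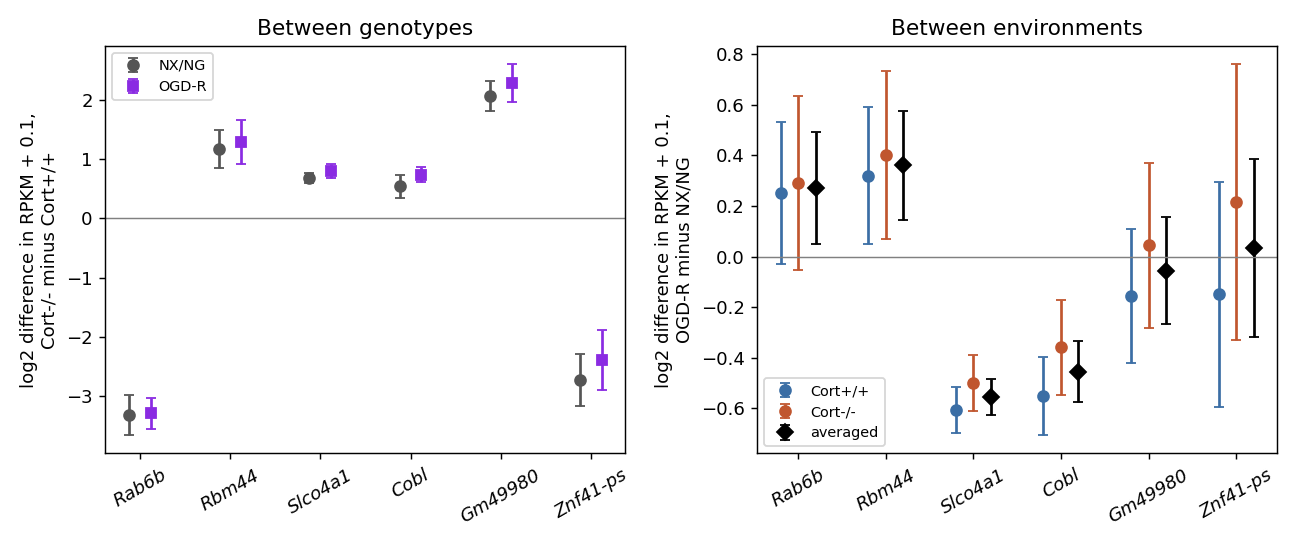
Left, log2 difference in RPKM + 0.1 (vertical axis) between Cort-/- and Cort+/+ for each gene under NX/NG (circles) and OGD-R (squares). Right, OGD-R minus NX/NG in Cort+/+, in Cort-/- and averaged over both (diamonds). Whiskers are 1 SE of the limma fit. On the right, Slco4a1 (-0.55) and Cobl (-0.46) lie below 0 in both genotypes.

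The genotype differences of the 6 genes were close in the 2 environments, which is part of how they were chosen. The largest distance between the 2 was that of *Znf41-ps* (-2.72 and -2.38), and whether any gene's genotype difference itself differed between environments was not tested. Leaving out either library low in ribosomal RNA gave OGD-R differences of -3.20 and -3.42 for *Rab6b*, 1.37 and 1.18 for *Rbm44*, 0.82 and 0.84 for *Slco4a1*, 0.73 and 0.79 for *Cobl* and 2.17 and 2.02 for *Gm49980*, without Cort-/- replicate 3 and without Cort+/+ replicate 1 in turn.

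**Figure D3:**
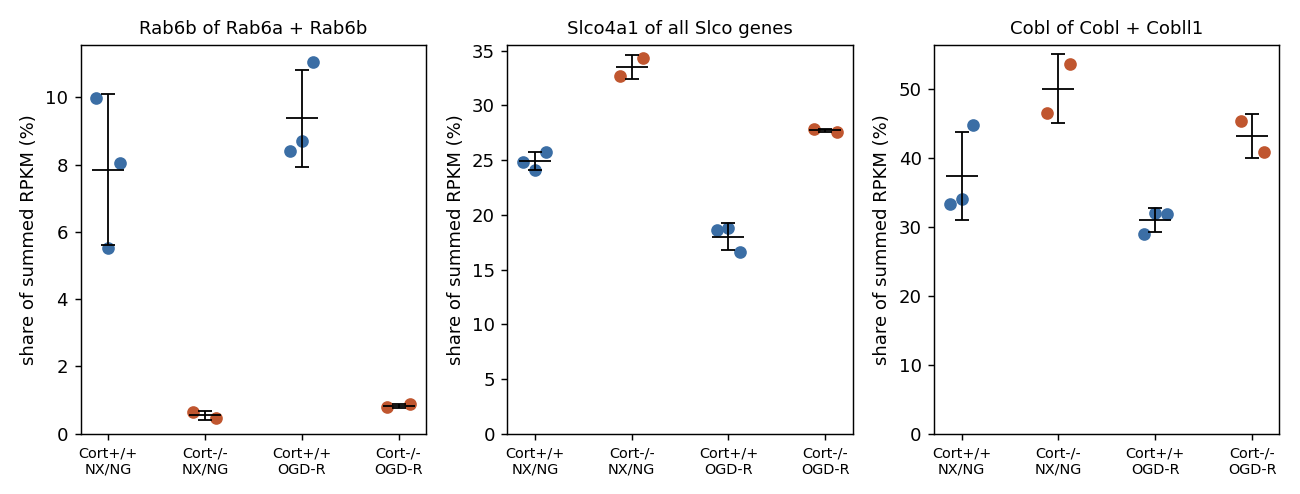
Share of summed RPKM in percent (vertical axes, from 0) taken by Rab6b of Rab6a and Rab6b, by Slco4a1 of all Slco genes and by Cobl of Cobl and Cobll1, by genotype and environment. Points are libraries, long bars means and whiskers 1 SD. Rab6b is below 1% in every Cort-/- library and at least 5.5% in every Cort+/+ library.

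The genes beside the 6 were examined next. For the 4 genes on other chromosomes, the log2 genotype differences of the 16 nearest protein-coding genes, 2 on each side, ran from -0.86 to 0.36 under NX/NG and from -0.35 to 0.24 under OGD-R, and limma called 0 of them. *Slco2a1*, 15.8 kb before *Rab6b*, gave the lowest value in both and was the one called by limma-voom, as above. All 4 neighbours of *Rab6b* had lower means in Cort-/- in both environments, without overlap under NX/NG for all 4 and under OGD-R for *Ryk*. Groups without overlap also occurred among the neighbours of the other genes. The share over all genes within a single environment was not counted, so nothing is read from groups without overlap here. *Ryk*, a receptor for Wnt ligands, had log2 differences of -0.26 ± 0.07 and -0.26 ± 0.10 (limma FDR 0.444 and 0.978), and *Srprb* and *Trf* had -0.09 ± 0.06 and -0.16 ± 0.08 under NX/NG. Next to *Rbm44*, *Lrrfip1* was at 58.2 ± 3.98 RPKM in Cort-/- and 46.8 ± 6.55 RPKM in Cort+/+ under NX/NG, a log2 difference of 0.32 ± 0.13 (limma FDR 0.615). Next to *Cobl*, *Grb10*, an adaptor of growth factor receptors, was at 18.2 ± 0.656 and 25.8 ± 3.87 RPKM (log2 difference -0.50 ± 0.13, limma FDR 0.411), opposite in direction to *Cobl*.

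Beside *Znf41-ps* on chromosome 4, *Zfp990*, 286 kb before it, was at 1.93 ± 0.0738 RPKM in Cort-/- and listed at 0 in all 3 Cort+/+ libraries under NX/NG, and at 1.72 ± 0.980 and 0.0251 ± 0.0258 RPKM under OGD-R (limma FDR 0.0803 and 0.257, limma-voom FDR 0.000362 and 0.0148). Of its words 11.6% were shared with other genes at 75 bases and 39.0% at 40 bases. *Tnfrsf8*, 510 kb before it, was at 2.04 ± 0.0728 and 4.55 ± 2.19 RPKM under NX/NG (limma FDR 0.608). The pseudogene thus lay among genes of chromosome 4 that were higher in Cort-/- and genes that were lower, none called by limma.

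**Figure D4:**
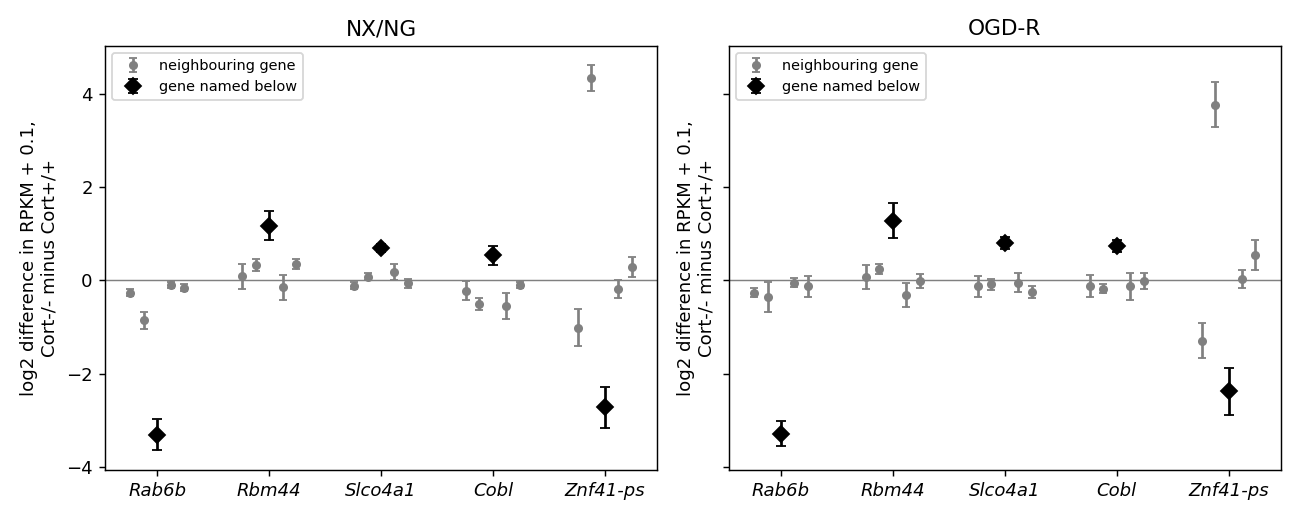
Log2 genotype difference in RPKM + 0.1 (vertical axis) of each gene with a position (diamonds) and of its 2 nearest protein-coding genes on each side (grey), under NX/NG and OGD-R. Whiskers are 1 SE. Neighbours of Rab6b, Rbm44, Slco4a1 and Cobl lie between -0.86 and 0.36 under NX/NG. The high grey point beside Znf41-ps is Zfp990, whose height depends on the 0.1 added, since it is listed at 0 in Cort+/+ under NX/NG.

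The genes most like each of the 6 over the 10 libraries were listed as a description, by Pearson's r of log2(RPKM + 0.1) among 14850 genes, where the genotype differences by which the 6 genes were chosen set much of the likeness. For *Rab6b* they were *Pdpn* (podoplanin, r = 0.987), *Tnfrsf1b* (a TNF receptor, 0.980) and *Traj32* (0.970). *Pdpn* was at 2.60 to 4.59 RPKM in Cort-/- and 18.1 to 23.0 RPKM in Cort+/+ under NX/NG, and lies 5.86 Mb from *Cort* on the same chromosome. For *Znf41-ps* they were *Zfp991* (0.968), *Tnfrsf1b* (0.961) and *Khdrbs3* (0.947). For *Gm49980* they were *Zfp990* (0.956), *Eno1b* (0.940) and *Clstn1* (0.933), and for *Rbm44* they were *Eno1b* (0.959), *Nipal3* (0.931) and *Sh3tc1* (0.913). *Eno1b*, an enolase gene that shares 80.6% of its 75-base words with other genes, mostly with *Eno1*, was at 36.1 to 45.7 RPKM in Cort-/- and 11.6 to 20.2 RPKM in Cort+/+ under NX/NG. *Tnfrsf1b* (3.91 Mb), *Zfp991* (1.99 Mb), *Zfp990* (3.61 Mb), *Clstn1* (0.461 Mb) and *Nipal3* (13.7 Mb) also lie on the chromosome of *Cort*, at these distances from it. No share is read from these places, since the choice of the 6 genes by genotype sets much of the lists. *Tnfrsf1b* stands in 2 of them, and *Zfp991* is the near copy of *Znf41-ps*. Whether nearness to *Cort* has a part in these likenesses was not tested.

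For *Slco4a1* the genes most alike were *Nos3* (endothelial nitric oxide synthase, r = 0.969), *Ptprk* (0.967) and *Itga3* (0.967), and for *Cobl* they were *Cgnl1* (the junction protein paracingulin, 0.987), *Nos3* (0.973) and *Itga3* (0.970). *Nos3* was at 39.0 to 41.2 RPKM in Cort-/- and 27.1 to 34.1 RPKM in Cort+/+ under NX/NG, and the means under OGD-R were 35.0 ± 1.46 and 25.8 ± 1.07 RPKM. *Nos3* and *Itga3* thus stood in both lists.

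For *Slco4a1* and *Cobl*, the most abundant of the genes chosen as higher in Cort-/- BECs, the 250 bases before the first listed start are shown, 5′ to 3′ on the gene's strand, from RefSeq on GRCm38.p6, with the letters GGGCGG on either strand in capitals. For *Slco4a1* they are chr2:180455995-180456244, forward strand, and for *Cobl* chr11:12464961-12465210, reverse strand.
Slco4a1: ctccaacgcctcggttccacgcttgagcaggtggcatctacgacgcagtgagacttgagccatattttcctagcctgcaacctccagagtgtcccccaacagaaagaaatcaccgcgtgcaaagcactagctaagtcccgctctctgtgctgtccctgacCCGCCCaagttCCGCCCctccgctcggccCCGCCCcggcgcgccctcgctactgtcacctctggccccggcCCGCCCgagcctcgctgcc
Cobl: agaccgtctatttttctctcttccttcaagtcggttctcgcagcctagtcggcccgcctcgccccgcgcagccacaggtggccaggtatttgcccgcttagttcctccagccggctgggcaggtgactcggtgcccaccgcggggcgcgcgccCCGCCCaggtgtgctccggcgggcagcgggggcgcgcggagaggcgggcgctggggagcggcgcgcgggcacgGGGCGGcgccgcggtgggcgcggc
The letters occurred 4 times before *Slco4a1* and 2 times before *Cobl*, and at least once in 32.7% of 32851 RefSeq windows of this length. The windows held 21 and 36 CpG, where the median window held 6. A later start listed for each gene had 4 CpG (*Slco4a1*) and 0 CpG (*Cobl*) in its window, and the letters in neither. A RefSeq window was also listed for *Rab6b*, which was lower in Cort-/- BECs, with 40 CpG and the letters once. That window (chr9:103111824-103112073) starts after the GENCODE start of *Rab6b* given above. Neither CpG above the median nor the presence of the letters was thus particular to *Slco4a1* and *Cobl*. The match of letters is a description only.

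Marker sums were compared with the genotypes, since bulk RNA cannot tell fewer cells of a type from less RNA per cell. Fibroblast markers, 5 of 5 present and led by *Col1a1*, summed to 62.8 to 93.6 RPKM in Cort-/- and 156.8 to 223.9 RPKM in Cort+/+ under NX/NG, and to 161.1 to 206.3 and 169.1 to 279.2 RPKM under OGD-R. Pericyte markers, 3 of 3 present and led by *Cspg4* with *Kcnj8* at or below 0.0353 RPKM, summed to 0.958 to 1.51 and 3.83 to 4.41 RPKM under NX/NG, and to 3.78 to 4.83 and 4.95 to 5.59 RPKM under OGD-R. Both sums were thus lower in Cort-/- libraries under NX/NG, as *Rab6b* and *Znf41-ps* were, and so was the pericyte sum under OGD-R, while the fibroblast sums then overlapped. *Cspg4* alone overlapped under OGD-R, at 3.69 to 4.72 RPKM in Cort-/- and 4.49 to 5.15 RPKM in Cort+/+. *Vtn* stood apart there, at 0.0840 to 0.108 and 0.247 to 0.574 RPKM, but overlapped under NX/NG. The fibroblast sum was carried by *Col1a1* and *Col1a2*, and *Pdgfra* of the same list went the other way under NX/NG, at 0.485 to 0.706 RPKM in Cort-/- and 0.319 to 0.366 RPKM in Cort+/+. The part of these cells in the values of the 6 genes was not tested.

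The endothelial markers, 5 of 5 present, summed to 1014 to 1143 RPKM in Cort-/- and 782.0 to 1028 RPKM in Cort+/+ under NX/NG, and to 903.5 to 1223 and 840.1 to 1020 RPKM under OGD-R. Epithelial markers, 5 of 5 present, reached 56.9 RPKM in Cort+/+ NX/NG replicate 2 and 40.4 RPKM in a Cort-/- OGD-R library, and were at 2.81 RPKM in the lowest library. *Cobl*, known from epithelia, was at 3.92 RPKM in that Cort+/+ library, between the other libraries of its group. In the Cort-/- OGD-R libraries, among them that at 40.4 RPKM, *Cobl* was at 4.71 and 4.79 RPKM. Epithelial cells as a source of *Cobl* were not tested. Neuron markers (3 of 3 present) summed to at most 0.956 RPKM, although *Rab6b* is known from neurons. Under NX/NG their sum was lower in Cort-/-, at 0.457 to 0.521 RPKM against 0.688 to 0.853 RPKM in Cort+/+. *Reln* led this sum, while *Nefl* overlapped. Under OGD-R the sums overlapped, at 0.491 to 0.814 and 0.451 to 0.956 RPKM. Neurons as a source of *Rab6b* were not tested. Astrocyte markers (2 of 3 in both tables) summed to at most 0.154 RPKM. Oligodendrocyte markers (2 of 3) summed to at most 0.368 RPKM, microglia markers (2 of 3) to at most 0.271 RPKM and choroid plexus markers (3 of 3) to at most 1.20 RPKM, with *Kl* at or below 0.00965 RPKM.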

How the data were processed

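Primary BECs were profiled by mRNA sequencing in 2 genotypes and 2 environments. The deposited RPKM values were computed by the authors with the reanalyzerGSE pipeline, per kilobase of the gene lengths in the tables and scaled to library size, separately for each environment, and the aligner, counter, build and annotation are not given in the sources used here. The gene length in bases (another deposited column) served to recover reads, of which at least 99.9958% came out whole within 0.05. The labels and the methods differ in kit and read length (40 or 75 bases). Groups were taken from the labels. Genotypes were compared within a table. Environments were compared over the 27321 genes of both tables after scaling recovered reads with a trimmed mean of M values.

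Tests used limma 3.58.1 in R 4.3.3 on log2(RPKM + 0.1), with a trend, Benjamini-Hochberg adjustment and an FDR of at most 0.05. The pseudocount understates changes of low genes. The fits were tested on simulated data. With 2 or 3 pooled cultures per group, p-values measure the spread between these cultures, and read numbers cover counting error only. The 6 genes, the gene lists and the markers were chosen with earlier results of these data known. Named genes are the 6, the 3 most alike by r, the 2 nearest protein-coding genes on each side, paralogues and called genes of the lists, and other named genes were chosen after their values were seen. The authors' own fold changes, p-values and FDRs were not used. Alternatives were a pseudocount of 1, a minimum of 1 RPKM in 2 or more libraries, quantile normalization, limma-voom on recovered reads, the replicate number as a block, a ribosomal RNA term marking the 2 libraries with little of it and each library left out.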

Additional observations from a re-analysis of the deposited data

How the results depend on the processing

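No genotype difference of the 6 genes changed direction under the alternatives run, of which the minimum of 1 RPKM left *Rbm44* out of the fit, and the differences of low genes shrank with a pseudocount of 1 under NX/NG and OGD-R (*Rab6b* to -1.74 and -1.89, *Znf41-ps* to -1.13 and -1.01, *Gm49980* to 1.31 and 1.45, *Rbm44* to 0.25 and 0.34). Calls over all genes depended strongly on the processing. Between environments limma called 6 genes, and 1 with a pseudocount of 1, 1 with the ribosomal RNA term, 0 with the replicate block, 20 with limma-voom, and 0 to 6 with a library left out. Between genotypes the main count was 0 in both environments. Under NX/NG it was 20 with a pseudocount of 1, 124 with limma-voom, 0 with the replicate block and 0 to 683 with a library left out, and under OGD-R it was 5 with limma-voom, 0 with the replicate block and 0 to 710 with a library left out. The high counts, 543 and 683 without Cort-/- NX/NG replicate 1 or 2 and 710 and 626 without Cort-/- OGD-R replicate 1 or 3, came with a lone Cort-/- library, assumed to vary like Cort+/+. Same-numbered libraries deviated together over 0.1 in 2 of 12 pairs (r from -0.39 to 0.13), so the numbers were not taken as pairs.

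*Slco4a1* between environments kept its direction in 16 alternatives (-0.58 to -0.48) with FDRs from 0.027 to 0.539, and passed only with limma-voom. The small differences of 2 genes between environments turned sign. *Znf41-ps* went to -0.018 with a pseudocount of 1 and ranged from -0.28 to 0.34 with a library left out, and *Gm49980* went to 0.09 with the ribosomal RNA term and ranged from -0.137 to 0.072 with a library left out. The cause was not tested. Depth limits *Rbm44*, *Gm49980* and *Znf41-ps*, which rest on few reads in 1 genotype.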
